A study of Homo sapiens with 16 samples.

Results

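The promoters of 52 human genes that carry out DNA replication or drive the cell cycle were followed in GM12878 cells during the first hour of exposure to bacteria. GM12878 is a B-lymphoblastoid line, made from B cells immortalised with Epstein-Barr virus, and every group shares this line and the virus. The genes were taken by name from a fixed list, and each had 1 promoter among the 21857 promoters of the series. The rule takes names only and uses no measured value, although the list was drawn up with earlier results of these data known. They fall into 7 roles, which are origin recognition and licensing (ORC1 to ORC6, CDC6 and CDT1), the helicase and its activation (MCM2 to MCM7, MCM10, CDC45 and GINS1 to GINS4), polymerases (POLA1, POLA2, POLD1, POLD2, POLD3, POLE and POLE2), the sliding clamp and its loader (PCNA and RFC1 to RFC5), nucleotide supply (RRM1, RRM2 and TYMS), G1 and S regulators (CCND2, CCND3, CCNE1, CCNE2, CDK2 and E2F1) and G2 and mitosis (CCNA2, CCNB1, CCNB2, CDK1, AURKA, AURKB, PLK1, BUB1, CDC20 and TOP2A).

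Cells were left untreated or were stimulated with heat-killed Salmonella typhimurium (HKST) for 20, 40 or 60 min. Chromatin of each was digested with either 20 U (light) or 200 U (heavy) of micrococcal nuclease (MNase), in 2 replicates, giving 16 samples. Fragments from the 2 kb around each transcription start site (TSS) were captured and sequenced, and the tables hold those of nucleosome size (140 to 200 bp). The deposited values are 8 tables, 1 for each time point and digestion, and each table pools both replicates, so that no spread between replicates can be computed. Each time point was digested separately, so an effect of time and a difference between digestion runs cannot be told apart. All errors below are exact 95% intervals of the fragment counts, which cover counting error only.

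DNA replication begins when the origin recognition complex, with CDC6 and CDT1, loads the MCM helicase onto DNA in G1. CDC45 and the GINS complex then activate the helicase, and DNA polymerases alpha, delta and epsilon copy the strands with the PCNA clamp, which replication factor C places on DNA. Many of these genes are transcribed in G1 and S phase through E2F sites in their promoters, whereas genes of G2 and mitosis often carry CCAAT boxes and a cell cycle genes homology region (CHR). A nucleosome that light digestion releases in excess over heavy digestion is called MNase-sensitive, and active promoters usually have a nucleosome-free region just upstream of the TSS, between the -1 and the +1 nucleosome.

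Library depth, worked out from what 1 fragment is worth in rpm, was 9426027 to 10459049 fragments for light digestion. Heavy depth was 5117307 fragments untreated, 4121396 at 20 min, 3272160 at 40 min and 7038122 at 60 min. Raw heavy counts below are thus not comparable between times, and low ones at 40 min partly reflect the lowest depth. Ratios, changes and intervals are scaled to depth. All 52 promoters were complete in 5 of the 8 tables. The untreated heavy table lacked GINS3, TYMS, CDC45, MCM3 and RRM2 and held the other 47. The table for 20 min light held only CDC20, ORC1, MCM10, CDK1 and RRM1, and that for 20 min heavy held 19. All comparisons with untreated cells use the same untreated tables, so the values at 20, 40 and 60 min are not independent of each other. No expression was measured in these tables, so the identity of the cells was not checked against marker genes.

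The promoter sequence was searched from -250 to 49 bp of the TSS, on both strands, for the E2F motifs TTTGGCGC, TTTCGCGC, TTTCCCGC and TTTGCCGC, the CHR motif TTTGAA and the CCAAT box. An E2F match was present in 14 of the 52 promoters (26.9%), compared with 3.68% of all 21857 promoters. A CHR match was present in 11 (21.2%), compared with 13.1% of all, and a CCAAT box in 38 (73.1%), compared with 35.4% of all. CDK1 and MCM6 held both E2F and CHR matches. Genes of G2 and mitosis made up 7 of the 11 promoters with a CHR match (CDK1, CCNB2, AURKA, AURKB, PLK1, CDC20 and TOP2A). The 14 promoters with an E2F match were those of CDC6, CDT1, MCM3, MCM5, MCM6, GINS1, GINS2, POLA1, POLA2, POLE, RFC3, TYMS, E2F1 and CDK1, so that each of the 7 roles was represented. A match describes the letters in this window and not binding.

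The 6 sequences below run from -150 to 29 bp of the TSS in hg19 and are written on the strand of the gene, with the E2F or CHR matches in capitals. CDC6, MCM6, CDK1 and GINS1 are shown because they hold E2F matches and had higher light over heavy ratios at 40 min, and PLK1 and TOP2A because they hold CHR matches and were released by light digestion in untreated cells. In the MCM6 promoter, the matches overlap in pairs on opposite strands and lie at -118 and -56.
CDC6, chr17:38443996-38444175, plus strand: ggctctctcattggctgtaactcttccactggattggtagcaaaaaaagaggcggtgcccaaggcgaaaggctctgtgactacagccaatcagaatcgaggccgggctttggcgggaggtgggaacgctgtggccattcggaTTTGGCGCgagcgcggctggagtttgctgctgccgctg
MCM6, chr2:136634018-136634197, minus strand: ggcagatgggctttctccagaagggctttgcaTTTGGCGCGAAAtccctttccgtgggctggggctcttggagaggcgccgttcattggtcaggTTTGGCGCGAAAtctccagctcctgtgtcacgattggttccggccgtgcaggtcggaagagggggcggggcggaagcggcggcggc
CDK1, chr10:62538062-62538241, plus strand: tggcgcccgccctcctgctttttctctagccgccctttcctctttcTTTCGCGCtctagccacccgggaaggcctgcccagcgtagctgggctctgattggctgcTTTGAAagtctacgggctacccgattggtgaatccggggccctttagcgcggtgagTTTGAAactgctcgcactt
GINS1, chr20:25388173-25388352, plus strand: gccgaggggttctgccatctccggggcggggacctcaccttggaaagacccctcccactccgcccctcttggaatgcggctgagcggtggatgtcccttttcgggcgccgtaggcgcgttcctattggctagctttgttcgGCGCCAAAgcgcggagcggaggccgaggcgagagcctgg
PLK1, chr16:23690051-23690230, plus strand: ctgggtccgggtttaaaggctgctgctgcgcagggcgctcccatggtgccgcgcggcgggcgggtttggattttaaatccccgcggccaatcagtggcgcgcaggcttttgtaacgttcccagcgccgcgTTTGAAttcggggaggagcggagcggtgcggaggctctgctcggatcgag
TOP2A, chr17:38574173-38574352, minus strand: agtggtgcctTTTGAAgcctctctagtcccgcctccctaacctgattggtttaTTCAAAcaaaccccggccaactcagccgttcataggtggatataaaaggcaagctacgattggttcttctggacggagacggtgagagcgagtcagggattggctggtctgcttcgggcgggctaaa

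The sequence of the 52 promoters was rich in G and C, with a median of 63.8% over the 300 bases searched, compared with 60.7% over all promoters. The ratio of observed to expected CpG was 0.909 at the median, compared with 0.701. A protein-coding gene started in the opposite direction within 500 bp upstream at 11 promoters (21.2%, compared with 11.3% of all). The pairs were AURKA with CSTF1, CDK2 with PMEL, CCNE2 with NDUFAF6, MCM2 with TPRA1, MCM4 with PRKDC, MCM7 with AP4M1, ORC1 with PRPF38A, ORC3 with RARS2, ORC4 with MBD5, ORC6 with VPS35 and POLE with PXMP2. ORC4 stood apart in composition, since its promoter had a CpG ratio of 0.143, the lowest of the 52, at a GC content of 61.3%.

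In untreated cells, the nucleosome-free region of these genes was deep. On the average profile of light plus heavy signal, in rpm (fragment counts scaled to the sequencing depth of each table), the 47 promoters present in the untreated tables fell to 0.346 rpm at -100 bp. All 16260 promoters fell to 1.17 rpm at -80 bp. The +1 nucleosome peaked at 3.43 rpm at 140 bp for the replication and cell cycle genes and at 2.34 rpm at 150 bp for all promoters, while the -1 nucleosome had nearly the same height in both (2.34 rpm at -230 bp and 2.32 rpm at -210 bp). The +2 nucleosome lay at 330 bp for these genes and at 360 bp for all promoters.

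**Figure D1:**
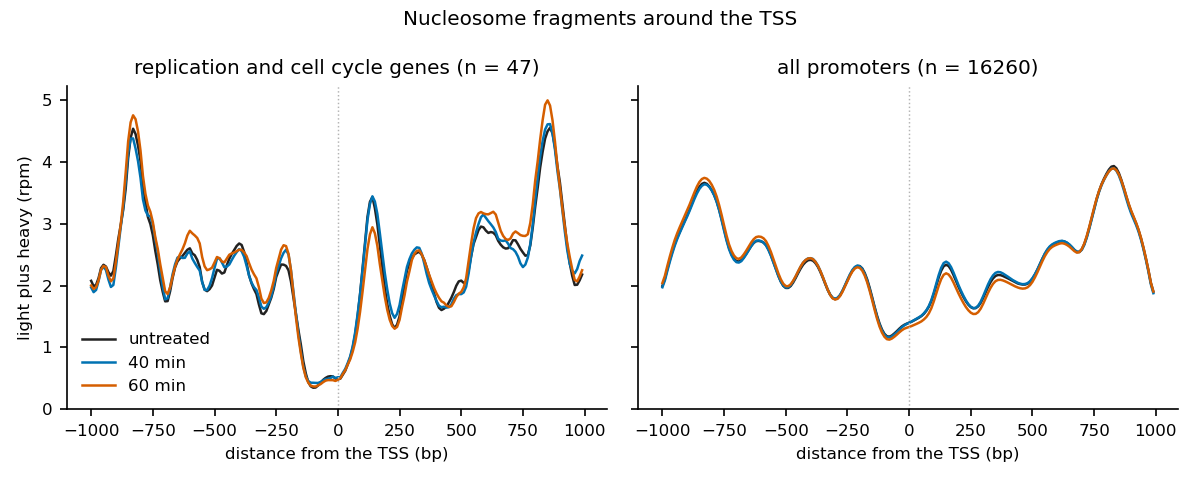
Average light plus heavy signal (rpm, vertical axis) against the distance from the TSS (bp) for the 47 replication and cell cycle promoters (left) and all 16260 promoters (right), smoothed over 3 bins. Lines are untreated cells and 40 and 60 min of HKST; the trough upstream of the TSS reaches 0.346 rpm on the left and 1.17 rpm on the right in untreated cells.

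Depth of the nucleosome-free region was also measured for each promoter, as log2 of the mean signal from -100 to 50 bp over the mean signal of the 2 kb. The median was -2.84 over the 47 promoters and -1.86 over all promoters, and 37 of the 47 were deeper than the median of all. The G1 and S regulators had the lowest median (-4.06, n = 6), followed by the polymerases (-3.27, n = 7), the origin recognition and licensing genes (-3.02, n = 8), the G2 and mitosis genes (-2.95, n = 10), the helicase genes (-2.85, n = 9) and the clamp and its loader (-2.24, n = 6). These roles overlapped widely, and RRM1, the only measured gene of nucleotide supply, had -0.34. Among the G1 and S regulators, CCND3, CCNE1 and E2F1 also had 0 light and 0 heavy fragments from 50 to 250 bp in untreated cells. At these promoters a nucleosome-free region cannot be told apart from missing signal on both sides of the TSS.

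The emptiest promoters belonged to several roles. ORC6, the smallest subunit of the origin recognition complex, had -4.77 untreated, -4.34 at 40 min and -4.71 at 60 min. CCNB1, the mitotic cyclin B1, had -4.39, -2.98 and -4.13, and E2F1, a transcription factor that activates S phase genes, had -4.34, -3.82 and -4.48 at the same times. E2F1 had 0 light and 0 heavy fragments from 50 to 250 bp at each of these times, so no +1 nucleosome was seen beside its gap. At the other end, 3 promoters had as much signal over the TSS as over the rest of the 2 kb, or more. The ORC4 promoter had 0.78, 0.91 and 0.62 (untreated, then 40 and 60 min), POLE2, a subunit of polymerase epsilon, had 0.44, 0.53 and 0.38, and POLA1, the catalytic subunit of polymerase alpha, had 0.034, -0.034 and -0.30. The median over the 47 was -2.88 at 40 min and -2.75 at 60 min, compared with -1.82 and -1.89 over all promoters.

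**Figure D2:**
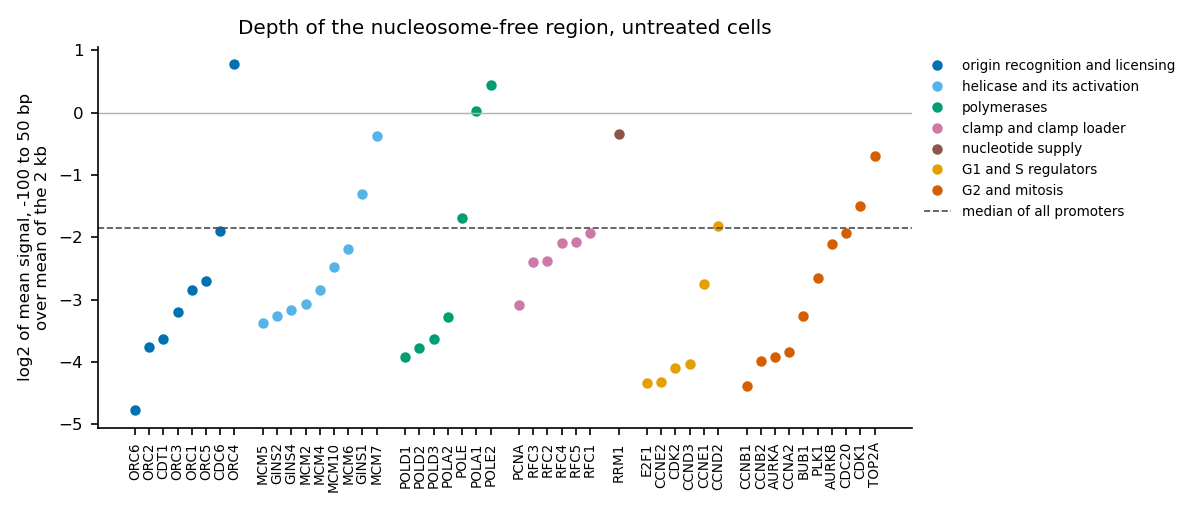
Depth of the nucleosome-free region (log2 of the mean signal from -100 to 50 bp over the mean of the 2 kb, vertical axis) for each of 47 promoters in untreated cells, coloured by role. The dashed line is the median of all promoters (-1.86); 37 points lie below it, and ORC4, POLE2 and POLA1 lie above 0.

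Sensitivity just upstream of the TSS was measured from -200 to 0 bp (the -1 window) as log2 of light over heavy rpm, each with 0.122 rpm added as a pseudocount. The average -1 peak of these genes lay just outside this window, at -230 bp in untreated cells, -210 bp at 40 min and -220 bp at 60 min, while the trough lay inside it. At these genes the window thus covers mostly the nucleosome-free region. A window from -250 to -100 bp, which holds the peak, is given beside the results of the whole list and of some promoters. Changes of single promoters given without it can differ there in size or sign. Few fragments lay in the -1 window. At 40 min the median over the 52 promoters was 10 light fragments and 1 heavy fragment, compared with 16 and 4 over all promoters. A promoter entered a comparison with 10 or more fragments summed over the tables compared. At 40 min 33 of 47 passed, and at 60 min 32 of 47. For 60 against 40 min 38 of 52 passed, and for untreated cells alone 25 of 47. Fragments after HKST count towards this sum, so a promoter with few untreated fragments can pass through the time point where it is high. Counts of higher promoters and 2-fold counts below carry this limit. The 14 promoters that did not pass at 40 min were those of CDT1, MCM4, MCM10, GINS2, GINS4, POLA2, POLD1, POLD2, POLD3, POLE, RFC2, CCNE1, E2F1 and CCNA2. Their median GC content was 73.3%, compared with 62% for the 33 that passed, and the part of base composition in the low counts was not tested.

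In untreated cells, 18 of the 25 promoters that passed had more light than heavy signal in the -1 window, with a median log2 ratio of 0.36. Over all 10987 promoters that passed, the median was 0.13, and 56.1% had more light signal. From -250 to -100 bp the median was 0.63 over 29 members and 0.19 over all promoters. Light exceeded heavy signal by more than counting error at 7 of the 25, those of BUB1, CCNB2, PLK1, TOP2A, ORC2, ORC6 and RFC1, while 13.8% of all promoters did so. The opposite was found at 0 of 25, compared with 15.1% of all promoters. These are counts of single pooled tables and carry no test between samples.

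Genes of G2 and mitosis were 4 of those 7, and 8 of the 25 promoters that passed. TOP2A, the topoisomerase that untangles replicated chromosomes, had 35 light fragments and 1 heavy fragment and a log2 ratio of 2.61 (1.63 to 9.55). CCNB2, a mitotic cyclin, had 20 light and 1 heavy fragment (1.90, 0.75 to 8.77). BUB1, a kinase of the spindle checkpoint, had 44 and 11 fragments (0.92, 0.098 to 2.18), and PLK1, a kinase of mitotic entry, had 20 and 3 (1.29, 0.058 to 4.20). The lowest of the role was CDC20, an activator of the anaphase-promoting complex, with 6 and 5 fragments and -0.39 (-2.64 to 1.39).

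Of the origin recognition complex, ORC6 had the most fragments of all 52 promoters, 97 light and 27 heavy, with a ratio of 0.87 (0.29 to 1.59), and ORC2 had 65 and 17, with 0.97 (0.22 to 1.87). The lowest of this role was ORC1, the largest subunit, with 6 and 5 fragments and -0.36 (-2.64 to 1.39). Within the clamp loader, RFC1, its large subunit, had 51 and 9 fragments and 1.31 (0.54 to 2.79), and RFC4 had 39 and 20 fragments and 0.024 (-0.78 to 0.89). The 4 helicase genes that passed ranged from -0.51 at MCM2, with 5 light and 5 heavy fragments, to 0.33 at GINS1, with 30 and 12. Among the G1 and S regulators only CDK2, with 10 and 1 fragments and a ratio of 1.33, and the D-type cyclin CCND2, with 21 and 8 and a ratio of 0.36, could be measured. POLE2 was the only polymerase gene to pass, with 53 and 29 fragments and -0.062, and RRM1, the large subunit of ribonucleotide reductase, the only gene of nucleotide supply, with 32 and 15 and 0.17.

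At 20 min, only 5 of the promoters could be compared with untreated cells, and all 5 had higher ratios in the -1 window. CDC20 had 2 light and 0 heavy fragments after 6 and 5 in untreated cells, a change of 1.01 in log2 ratio. CDK1, the kinase that starts mitosis, had 9 and 0 after 6 and 2, a change of 1.35. MCM10, which binds the MCM helicase as replication starts, had 7 and 0 after 2 and 1, a change of 1.26. It passed the filter through its light fragments after HKST. The remaining pair held more fragments. ORC1 had 12 and 2 after 6 and 5 (1.12, -1.26 to 5.56), and RRM1 had 47 and 10 after 32 and 15 (0.64, -0.74 to 2.21). The median was 1.12, compared with 0.13 over the 2235 promoters tested, of which 57.8% were higher. It was 0.41 with a pseudocount of 0.5 of the mean, and 0.26 from -250 to -100 bp, where 3 of the promoters had enough fragments. In that window CDC20 had a change of 0.12, RRM1 of 0.26 and ORC1 of 0.41.

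Counted by size, 4 of 5 were higher by 2-fold or more, compared with 13.2% of all promoters tested at 20 min, and 0 were lower by as much, compared with 5.95%. None of the 5 single changes was beyond counting error, in either direction, while 2.15% of all promoters were higher and 2.1% lower. Summed over the 5 promoters, the window held 77 light and 12 heavy fragments at 20 min after 52 and 28 in untreated cells, a change of 1.37 with a counting interval of 0.19 to 2.60. The summed change over all 2801 promoters was 0.11. In the +1 window, from 50 to 250 bp, the summed change of the 5 was -0.023 (-0.59 to 0.54). The heavy table at 20 min held 19 of the promoters, and their summed heavy signal in the -1 window differed from that of untreated cells by 0.071 (-0.36 to 0.49) on the log2 scale.

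At 40 min, 21 of the 33 promoters had higher ratios than in untreated cells, and the median change was 0.48, compared with 0.10 over the 12646 promoters tested, of which 55.6% were higher. With 40 or more fragments the median change of the members was 0.029. A change of 2-fold or more upwards was found at 8 of the 33 (AURKB, CDC6, CDK1, MCM2, MCM6, ORC1, ORC3 and RFC3), compared with 12.6% of all promoters. Downwards it was found at 3 (ORC4, PCNA and TOP2A), compared with 6.11%. Beyond counting error, 0 of the 33 were higher, compared with 1.83% of all, and 1, ORC4, was lower, compared with 1.57%. With a pseudocount of 0.5 of the mean, 0 promoters reached 2-fold in either direction. From -250 to -100 bp, 0 of 37 were beyond counting error either way, ORC4 included. Summed over the 47 promoters, the log2 ratio of the -1 window was 0.61 in untreated cells and 0.86 at 40 min, a change of 0.25 whose counting interval reached from -0.079 to 0.59.

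At 60 min the median change was smaller. Of 32 promoters, 20 had higher ratios, and the median was 0.24 (0.087 with 40 or more fragments), compared with 0.065 over the 12825 promoters tested, of which 53.8% were higher. Upward values of 2-fold or more were found at 8 (CDC20, CDC6, CDK1, MCM10, MCM6, ORC1, POLA1 and RFC3), compared with 10.7% of all promoters, and downward values at 2 (CCNB2 and ORC4), compared with 4.86%. Beyond counting error, ORC1 was the 1 of 32 that rose, compared with 2.55% of all promoters, and ORC4 the 1 of 32 that fell, compared with 2.39%. Both calls were lost from -250 to -100 bp, where 2 of 37, BUB1 at 1.00 (0.0069 to 2.27) and POLE2 at 1.28 (0.21 to 2.46), were higher beyond counting error and 0 were lower. With a pseudocount of 0.5 of the mean, 0 promoters reached 2-fold. The summed log2 ratio was 0.76, a change of 0.15 (-0.13 to 0.44).

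**Figure D3:**
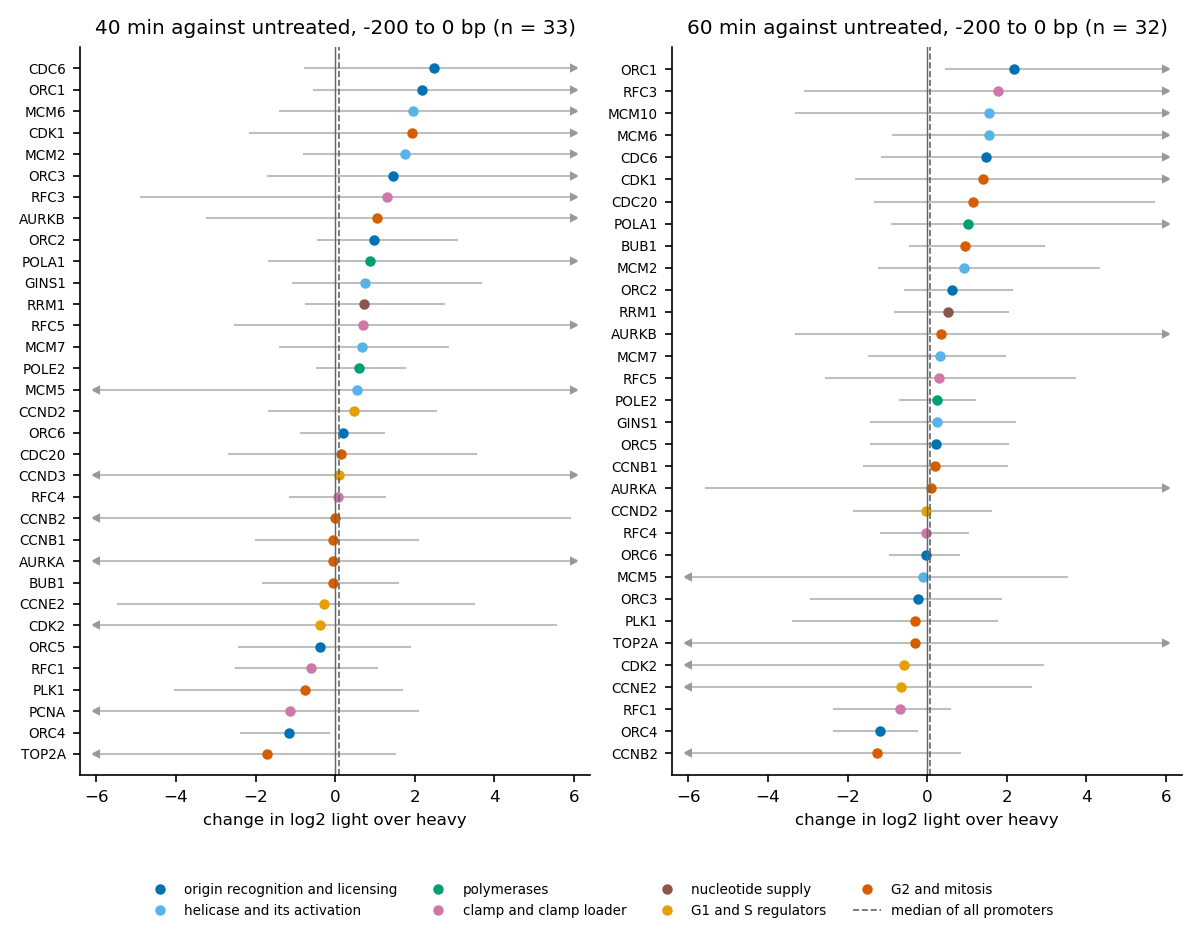
Change in log2 light over heavy from -200 to 0 bp at 40 min (left, 33 promoters) and 60 min (right, 32 promoters) against untreated cells, with exact 95% counting intervals in grey (arrowheads where they run beyond 6 or -6) and points coloured by role. The dashed lines are the medians of all promoters (0.10 and 0.065); the interval leaves out 0 only for ORC4 at 40 min and for ORC4 and ORC1 at 60 min.

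The licensing genes held both the highest and some of the lowest values. Untreated cells had 6 light and 5 heavy fragments at ORC1, 40 min gave 10 and 0, and 60 min gave 16 and 1. Its log2 ratio was -0.36, 1.82 and 1.81 at these times, a change of 2.18 at 40 min (from -0.54, with no upper bound) and a rise of 2.17 at 60 min (0.47 to 9.79). From -250 to -100 bp the changes were 1.15 (-0.90 to 7.75) and 0.59 (-1.03 to 2.38), and with a pseudocount of 0.5 of the mean 0.74 and 0.87. ORC4, another ATP-binding subunit of the complex, moved the other way. Its fragments numbered 54 and 22 before HKST, 39 and 25 at 40 min and 34 and 45 at 60 min, with ratios of 0.34, -0.81 and -0.85. The ratio fell by 1.15 at 40 min (interval -2.36 to -0.15) and by 1.19 at 60 min (-2.34 to -0.26), so that at ORC4, the promoter with the most signal over its TSS, heavy signal exceeded light signal at both times. From -250 to -100 bp its changes were -0.79 (-2.63 to 0.79) and -0.94 (-2.63 to 0.38).

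CDC6, which loads the helicase together with the complex, had 4 and 3 fragments untreated, 13 and 0 at 40 min and 12 and 2 at 60 min. The change was 2.48 at 40 min (from -0.75, with no upper bound), the highest of all the measured members, and 1.48 at 60 min (-1.13 to 6.48). ORC2 had 65 and 17, then 66 and 5, then 54 and 11 fragments, with changes of 0.99 (-0.43 to 3.05) and 0.63 (-0.55 to 2.13). ORC3 had 10 and 6, then 9 and 1, then 7 and 8, with changes of 1.45 (-1.69 to 7.51) and -0.22 (-2.93 to 1.85), while ORC5 and ORC6 changed by -0.39 and 0.20 at 40 min and by 0.22 and -0.039 at 60 min. The ORC6 promoter had the most fragments, 246 and 268 in all, and the narrowest intervals of the role at 60 min (-0.93 to 0.80). CDT1 had at most 1 light and 1 heavy fragment at any of these times.

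All 5 measured helicase genes had higher ratios at 40 min, with a median change of 0.74, and 5 of 6 at 60 min, with a median of 0.62. MCM6 had 6 and 5 fragments, then 6 and 0, then 7 and 1, changes of 1.94 (from -1.39, with no upper bound) and 1.55 (-0.86 to 8.70). MCM2 had 5 and 5, then 12 and 1, then 11 and 5, changes of 1.75 (-0.79 to 8.66) and 0.93 (-1.22 to 4.31). GINS1, with more fragments, had 30 and 12, then 24 and 3, then 17 and 7, changes of 0.74 (-1.05 to 3.67) and 0.24 (-1.40 to 2.22). No single gene of the role was beyond counting error. The lowest values of the role were those of MCM5, at 0.56 and -0.11. The highest at 60 min was that of MCM10, at 1.55, from 9 light and 0 heavy fragments after 2 and 1. MCM10 did not pass the filter at 40 min and passed at 60 min through its light fragments after HKST.

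Polymerase promoters had few fragments in the -1 window. POLA1 had 1 light and 8 heavy fragments, then 4 and 4, then 6 and 10, with log2 ratios of -1.90, -1.04 and -0.87. In untreated cells alone it did not pass the filter of 10 fragments, so its untreated ratio is not ranked with the others. The changes were 0.86 (-1.65 to 8.19) and 1.03 (-0.88 to 8.36). POLE2 had 53 and 29, then 69 and 16, then 61 and 37, with changes of 0.61 (-0.46 to 1.76) and 0.25 (-0.69 to 1.2). The catalytic subunits POLD1 of polymerase delta and POLE of polymerase epsilon had at most 2 light fragments and 1 heavy fragment at any of these times.

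For the clamp and its loader, RFC3 had 3 and 1 fragments, then 8 and 0, then 14 and 0, with changes of 1.30 and 1.79. PCNA, the clamp itself, had 4 and 0, then 7 and 3, then 5 and 0, with a change of -1.14 at 40 min, and it did not pass the filter at 60 min. RFC1 had 51 and 9, then 36 and 7, then 40 and 17, with changes of -0.60 (-2.48 to 1.06) and -0.69 (-2.35 to 0.57). RFC4, with 39 and 20, then 55 and 18, then 48 and 34, had changes of 0.073 (-1.15 to 1.24) and -0.031 (-1.15 to 1.02). Of the nucleotide supply genes, RRM1 had 32 and 15 fragments, then 37 and 6, then 32 and 13, with changes of 0.72 (-0.73 to 2.74) and 0.51 (-0.80 to 2.04).

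The G2 and mitosis genes did not move together. CDK1 had 6 and 2 fragments, then 14 and 0, then 9 and 0, with changes of 1.93 and 1.41. TOP2A had 35 and 1, then 14 and 2, then 26 and 1, with changes of -1.71 (-8.85 to 1.5) and -0.31 (-6.36 to 6.33). CCNB2 had 20 and 1, then 22 and 1, then 16 and 6, with changes of -0.015 and -1.27 (-8.09 to 0.82). At 40 min, 3 of 9 promoters of this role had higher ratios (median -0.048), and at 60 min 6 of 9 did (median 0.20). AURKB, the kinase of the chromosomal passenger complex, had 13 and 2, then 13 and 0, then 11 and 1 fragments, with changes of 1.04 and 0.34. For CDC20, with 6 and 5, then 7 and 3, then 7 and 2 fragments, the changes were 0.14 and 1.14, and for PLK1, with 20 and 3, then 19 and 4, then 23 and 7, they were -0.76 and -0.31.

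None of the measured G1 and S regulators reached 2-fold in either direction at 40 or 60 min. CCND2 had 21 and 8, then 26 and 5, then 24 and 13 fragments, with changes of 0.48 (-1.66 to 2.54) and -0.022 (-1.85 to 1.59). CDK2 had 10 and 1, then 8 and 1, then 11 and 3, with changes of -0.37 and -0.58, and CCNE2, which encodes cyclin E2, had 4 and 2, then 3 and 2, then 1 and 3, with changes of -0.27 and -0.67. E2F1 and CCNE1, the cyclin E1 gene, had at most 1 fragment in any of these tables.

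The comparison of 60 with 40 min needs no untreated table and adds the promoters that the untreated heavy table lacks. The median difference over 38 promoters was -0.098, compared with -0.053 over the 17314 tested, and it turned to 0.036 from -250 to -100 bp. At 60 min, 5 of 38 were higher by 2-fold or more (BUB1, CDC20, MCM3, PCNA and TOP2A), compared with 7.21% of all, and 3 were lower (CCNB2, GINS4 and ORC3), compared with 8.44%. Beyond counting error, 0 of 38 were higher and 0 lower, compared with 1.47% and 2.12% of all promoters. MCM3, a subunit of the helicase ring, had 11 light and 1 heavy fragment at 40 min and 28 and 0 at 60 min, a difference of 1.65 (from -3.06, with no upper bound). GINS3 had 40 and 10 fragments at 40 min and 39 and 10 at 60 min (0.88, -0.62 to 2.56), and TYMS, the thymidylate synthase gene, had 52 and 17 and then 51 and 25 (0.37, -0.73 to 1.56). CDC45 had 4 and 0 and then 7 and 1, and RRM2, the small subunit of ribonucleotide reductase, had counts that rounded to 0 in every table that held it.

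Promoters were then described by the motifs they hold. The 7 promoters with an E2F match and enough fragments (CDC6, CDK1, GINS1, MCM5, MCM6, POLA1 and RFC3) all had higher ratios at 40 min, from 0.56 to 2.48 with a median of 1.30. Of the 7, CDC6, CDK1, MCM5, POLA1 and RFC3 had fewer than 10 untreated fragments, so they passed the filter through fragments after HKST. The 26 without a match had a median of 0.081, and 14 of them were higher. At 60 min, 6 of the 7 were higher, with a median of 1.41, and 14 of 25 without a match, with a median of 0.20. Summed over all 12 promoters with a match that were in the untreated tables, the -1 window held 55 light and 31 heavy fragments untreated, 83 and 8 at 40 min and 77 and 24 at 60 min, which gives log2 ratios of -0.098, 1.85 and 1.16. Over the other 35 the summed ratios were 0.69, 0.78 and 0.73. None of the 7 single changes was beyond counting error, and this split was singled out after its values were seen, so it is given with no test.

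Over all promoters the same split was small. At 40 min, the 505 promoters with an E2F match had a median change of 0.24, and 61.2% were higher, while the 12141 without a match had a median of 0.096, and 55.4% were higher. The medians at 60 min were 0.23 and 0.057. Members with a CHR match had median changes of 0.14 at 40 min and 0.10 at 60 min (n = 11), compared with 0.58 and 0.25 for those without (n = 22 and 21). Median GC content was 65.8% over all 14 members with an E2F match and 63.7% over all 38 without. These sets include members with too few fragments to be measured, and the part of base composition in the split was not tested.

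Over the whole 2 kb, where each promoter has many more fragments, the replication and cell cycle genes were released more by light than by heavy digestion. The median log2 ratio over 2 kb in untreated cells was 0.32 over the 47, compared with 0.067 over all promoters. Light exceeded heavy signal by more than counting error at 25 of the 47 (53.2%), compared with 34.6% of all promoters. The same excess was found at 48 of 80 other replication and cell cycle promoters (60%), from the further list described below. The opposite was found at 4 of the 47 (CDT1, GINS2, GINS4 and POLE), compared with 28.5%. ORC5 had the highest ratio, 0.81, from mean signals of 1.06 rpm light and 0.549 rpm heavy, followed by RFC1 at 0.76, from 1.43 and 0.795 rpm, and ORC2 at 0.75, from 1.73 and 0.978 rpm. At the low end, POLE had -0.87 from 14 light and 27 heavy fragments, GINS2 -0.47 from 0.551 and 0.807 rpm, and CDT1 -0.37 from 0.590 and 0.796 rpm. The 25 held 8 of the 10 G2 and mitosis genes (CCNA2, CCNB1, CCNB2, CDK1, AURKA, AURKB, BUB1 and TOP2A). They also held ORC1 to ORC6, of the 8 origin recognition and licensing genes.

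On average profiles, the excess of light signal was found on both sides of the TSS. Upstream, the log2 ratio of the averaged signal peaked at 0.70 at -220 bp in untreated cells, at 0.95 at -230 bp at 40 min and at 1.10 at -250 bp at 60 min. For all promoters the upstream peak was 0.12, 0.19 and 0.22 at these times. Downstream, the members' profile in untreated cells came down to and below 0 over the +1 nucleosome. There the median ratio from 50 to 250 bp was -0.055 over 39 promoters, compared with -0.17 over all promoters. At 40 and 60 min this median was 0.13 and 0.069 (n = 37 and 39), compared with -0.092 and -0.16 over all promoters. Further downstream the members' profile rose again, to 0.61 at 860 bp in untreated cells, 0.58 at 880 bp at 40 min and 0.63 at 710 bp at 60 min. The far downstream peaks of all promoters were 0.023 at 990 bp, 0.0030 at 990 bp and 0.030 at 890 bp. At 40 and 60 min, the summed change of the +1 window was 0.071 (-0.12 to 0.26) and 0.16 (-0.013 to 0.33).

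**Figure D4:**
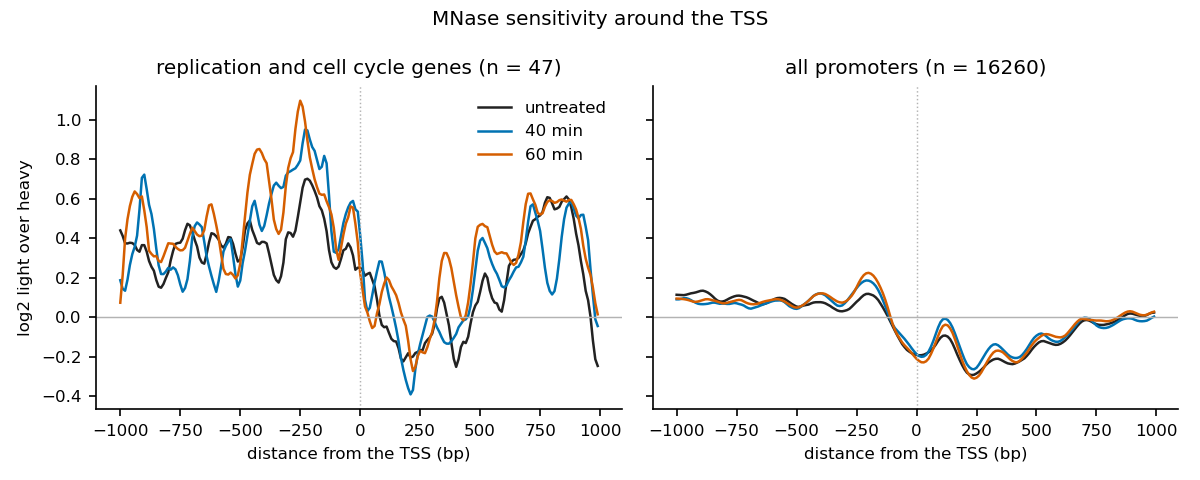
Log2 of light over heavy signal (vertical axis, averaged over promoters, with the pseudocount) against the distance from the TSS (bp) for the 47 replication and cell cycle promoters (left) and all 16260 promoters (right). The upstream peak of the members stands at 0.70 without HKST, 0.95 at 40 min and 1.10 at 60 min, and that of all promoters at 0.12, 0.19 and 0.22.

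Over the 2 kb, the ratio was hardly different at 40 min and higher at 60 min. The mean light signal of the 47 promoters was 1.21 rpm untreated, 1.24 at 40 min and 1.31 at 60 min, and the mean heavy signal 1.00, 0.995 and 0.975 rpm. Over all promoters every one of these means lay between 1.18 and 1.2 rpm. The summed change was 0.046 at 40 min (-0.018 to 0.11) and 0.16 at 60 min (0.10 to 0.21), compared with 0.012 and 0.018 over all promoters. The median change was -0.0079 at 40 min (quartiles -0.13 and 0.23) and 0.21 at 60 min (quartiles -0.025 and 0.28). At these times 23 and 29 of the 47 promoters were higher. Over all promoters the medians were 0.017 and 0.0063, and 52.9% and 50.9% were higher. For 60 against 40 min, the summed change over the 52 promoters was 0.10 (0.043 to 0.16). At 20 min, the 5 promoters had a summed change of 0.31 (0.11 to 0.50), compared with 0.045 over all. These intervals leave out the spread between promoters and any difference between the single digestions of each time point.

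Single promoters beyond counting error over the 2 kb were few. At 20 min, 1 of 5, CDC20, rose, compared with 10.5% of all promoters, and 0 fell, compared with 9.46%. At 40 min, 5 of 47 rose (CDC20, GINS4, MCM6, ORC1 and PCNA), compared with 5.92%, and 1, AURKB, fell, compared with 5.26%. At 60 min, 7 of 47 rose (CCNA2, CDC20, ORC1, ORC2, PCNA, POLE and RRM1), compared with 8.07%, and 2, CCNE1 and ORC4, fell, compared with 9.32%. CDC20, ORC1 and PCNA were on the list at both 40 and 60 min, which share the untreated tables. Of the other replication and cell cycle promoters described below, 2 of 16 (12.5%) rose at 20 min and 0 fell. At 40 min 3 of 80 (3.75%) rose and 1 fell, and at 60 min 13 of 80 (16.2%) rose and 1 fell.

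PCNA had the largest of these changes. Its 2 kb had mean signals of 0.634 rpm light and 0.739 rpm heavy in untreated cells, 0.974 and 0.505 at 40 min and 0.864 and 0.498 at 60 min, and its log2 ratio rose by 0.99 (0.55 to 1.80) and 0.86 (0.49 to 1.54). Light signal was thus higher and heavy signal lower at both times, although its -1 window held no more than 7 light fragments. The +1 window of PCNA had 36 light and 42 heavy fragments untreated, 63 and 14 at 40 min and 43 and 21 at 60 min. Changes in that window were 1.66 (0.66 to 2.96) and 1.55 (0.60 to 2.74). For ORC1 the means were 1.16 and 0.809 rpm untreated, 1.47 and 0.773 at 20 min, 1.32 and 0.571 at 40 min and 1.55 and 0.763 at 60 min, with changes of 0.37 (-0.014 to 0.85), 0.60 (0.20 to 1.19) and 0.46 (0.12 to 0.90). CDC20 had 1.23 and 1.44 rpm, then 1.38 and 1.19, 1.28 and 1.13, and 1.44 and 1.23, with rises of 0.39 (0.070 to 0.80), 0.37 (0.013 to 0.80) and 0.41 (0.12 to 0.77) at the 3 times.

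Several others rose at a single time. MCM6 had 1.03 rpm light and 0.958 rpm heavy untreated and 0.992 and 0.567 at 40 min (0.60, 0.12 to 1.3), and GINS4, a subunit of the GINS complex, 1.40 and 1.76, then 1.71 and 1.51 (0.47, 0.11 to 0.89). CCNA2, the cyclin of S phase and G2, had 0.924 and 0.695 rpm and then 1.19 and 0.608 at 60 min (0.49, 0.13 to 1.0), and RRM1 had 1.25 and 1.03, then 1.47 and 0.851 (0.46, 0.13 to 0.90). Apart from MCM6, these promoters had more light signal than before as well as less heavy signal. ORC2 rose by 0.34 (0.0030 to 0.77) at 60 min, and POLE by 0.68 (0.20 to 2.85), from 14 and 27 to 29 and 26 fragments. In the other direction, AURKB fell by 0.52 at 40 min (interval -1.07 to -0.079), from 1.33 rpm light and 0.766 heavy to 1.02 and 0.880. CCNE1 fell by 0.73 at 60 min (-1.65 to -0.31), from 0.413 and 0.289 rpm to 0.337 and 0.465, and ORC4 by 0.47 (-0.92 to -0.11), from 1.40 and 1.10 rpm to 1.31 and 1.48.

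**Figure D5:**
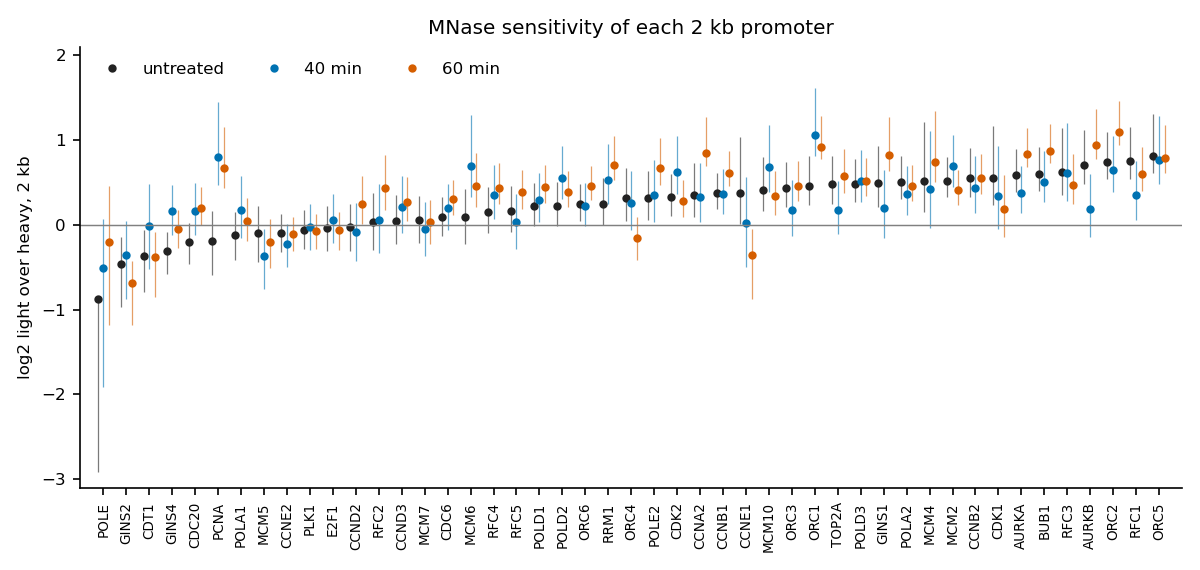
Log2 of light over heavy signal over the 2 kb (vertical axis) of each of 47 promoters in untreated cells and at 40 and 60 min, ordered by the untreated value, with exact 95% counting intervals as vertical lines. Untreated values run from -0.87 at POLE to 0.81 at ORC5, and PCNA, ORC1 and CDC20 are higher at both later times.

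Another 88 replication and cell cycle promoters, of a list of 89 genes outside the 52, were measured in the same way. In the -1 window, their median change was 0.26 at 40 min (n = 65, 42 higher) and 0.39 at 60 min (n = 63, 47 higher), and their median ratio in untreated cells was 0.48 (n = 54). At 20 min the median was 0.53 (n = 13, 9 higher), and for 60 against 40 min it was 0.21 (n = 71, 39 higher). The 52 genes had medians of 0.48 at 40 min, 0.24 at 60 min, 1.12 at 20 min and -0.098 for 60 against 40 min, and the difference between the lists was not tested. Beyond counting error, 2 of 65 (3.08%) rose at 40 min, compared with 1.83% of all promoters. At 60 min 2 of 63 (3.17%) rose, compared with 2.55%. At these times 0 and 1 fell, compared with 1.57% and 2.39% of all promoters. The 2 that rose at both times were RBL2, a pocket protein that represses E2F genes in resting cells, and RPA2, a subunit of the single-stranded DNA binding protein. RBL2 had 7 light and 8 heavy fragments, then 14 and 0, then 21 and 5, with a change of 2.05 (0.35 to 5.04) at 60 min. RPA2 had 7 and 7, then 23 and 2, then 16 and 2, with a change of 2.27 (0.49 to 6.92) at 60 min. The largest falls at 60 min were those of NCAPG, a condensin subunit, at -1.78 (-5.44 to -0.016), and CDKN1B, an inhibitor of cyclin-dependent kinases, at -1.08 (-4.34 to 0.99). E2F matches were found in 18 of these 88 promoters and CCAAT boxes in 42.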

How the data were processed

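Promoter fragments of 16 MNase-seq samples (4 time points, 2 digestions, 2 replicates) were used. Per the study's methods, reads were clipped and mapped in pairs to hg19, and those without a unique place were dropped by the authors (Bowtie2 2.2.2, bedtools and SAMtools in the submitters' processing notes, an earlier Bowtie2 in the methods). They counted fragment centers in windows of 60 bp at a step of 10 bp and scaled them to depth, so the deposited values are rpm in 200 bins for each promoter. Each of the 8 tables the authors deposited pools both replicates. All other values of these tables are on the same scale as the deposited rpm.

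Values rose in steps worth 0.5 of 1 fragment, and 100% of low values lay within 0.05 of a whole step, so fragment numbers were recovered (each fragment enters 6 windows) and rounded. Capture and PCR make reads dependent, so intervals cover counting error only. Of 3 tables, only complete promoters were used and a partial last line was left out (16260 promoters of the untreated heavy table, 2801 of the light table at 20 min and 6779 of the heavy one).

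For sensitivity, 0.122 rpm (0.1 of the mean value) was added to light and heavy rpm before the log2 ratio was taken, and a change is the difference of 2 such ratios, which understates changes where fragments are few. Changes of single and summed promoters have exact conditional 95% intervals of an odds ratio, scaled to depth, and a ratio in 1 time point has a Clopper-Pearson interval; these contain no pseudocount. Fragment recovery and the intervals of a change at 40 min were tested on simulated fragments. The intervals of a ratio in 1 time point were not. Promoters needed 10 or more fragments, and a size call was 2-fold. No test between samples was possible with 1 pooled table for each group, and no p-value is given. Members, gene lists, roles and motifs were chosen with earlier results of these data known. In each role, the text names the highest and lowest untreated ratio, the largest rise and fall at 40 and 60 min, every member beyond counting error and the members present at 20 min; others are named to describe their role. Promoter sequence came from GRCh37, and a GENCODE transcript started within 50 bp at 90.4% of the 52 promoters and 79.9% of all. Alternatives changed the pseudocount, centring, window, fragment filter, promoters per gene and the median for a sum. Python 3.11.15, numpy 2.4.6, scipy 1.17.1, pandas 2.3.3 and matplotlib 3.10.9 were used.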

Additional observations from a re-analysis of the deposited data

How the results depend on the processing

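No paired analysis was possible because each deposited table pools both replicates, and for the same reason no replicate could be left out. Of the 55 summary values recomputed under an alternative, 44 stayed within their spread or within 1.5 times their count. With a pseudocount of 0.5 of the mean, the median change of the 5 promoters at 20 min was 0.41, and no promoter reached 2-fold: the counts at 40 min were 0 higher and 0 lower, and those at 60 min 0 and 0. With a window from -250 to -100 bp, the median at 20 min was 0.26, the difference of 60 against 40 min turned to 0.036, the count of lower promoters at 40 min was 0 and that of higher promoters at 60 min was 5. From summed values, the change at 20 min was 1.37 and the difference of 60 against 40 min was 0.022. The cause was not tested; a larger pseudocount shrinks ratios of few fragments by construction. With 40 or more fragments, the median change was 0.029 at 40 min and 0.087 at 60 min, so the medians of the whole list rest largely on promoters with few fragments. Depth limits single promoters: most intervals in the -1 window span several log2 units, so they can hardly show a change with the setting. The members beyond counting error in the -1 window, ORC4 at 40 min and ORC1 and ORC4 at 60 min, were not so in the other window, where BUB1 and POLE2 were at 60 min.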
